A study of Mus musculus with 17 samples.

Results

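The enzymes that write, maintain and remove DNA methylation, together with the 2 catalytic subunits of Polycomb repressive complex PRC2, were followed through 17 arrays of sorted mouse myeloid cells. The 9 genes were Dnmt1, Uhrf1, Dnmt3a, Dnmt3b, Tet1, Tet2, Tet3, Ezh2 and Ezh1. Every probe set annotated with exactly 1 of these symbols was taken, which gave 18 probe sets for 8 of the 9 genes, out of 45037 probe sets in the table and 17097 genes with a probe set of 1 symbol. No probe set of the table used here was annotated with Tet1 alone, and Tet1 was not analysed here. Of the 8 genes, 5 had several probe sets, and their positions in the transcripts are not stated in the sources used.

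The cells came from mice aged 6 to 10 weeks and fell into 6 groups. Bone marrow gave myelo-dendritic progenitors (MDPs), which carried CD117 and the M-CSF receptor and lacked lineage markers, Sca1 and CD127, as 3 wild-type pools and 3 pools titled as an IRF8 knockout with the genotype label IRF8-deficient. A further 3 MDP pools expressed the fluorescent protein VENUS and 2 did not, and both of these groups also carry the genotype label IRF8-deficient. Wild-type spleen gave 3 pools of macrophages (CD11b and M-CSF receptor, no CD11c) and 3 pools of granulocytes (CD11b and Ly6C, no CD11c, no M-CSF receptor). Each pool held cells of 5 mice in the wild-type, knockout and spleen groups, and for the VENUS groups that number is not stated in the labels. Dendritic cells, which the design names as well, were not analysed here.

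Levels are the deposited log2 values of Affymetrix arrays after RMA normalization, in which a probe set is a group of short probes read together, and a difference of 1 is a 2-fold change. Some pools did not read as their labels would have it. The Irf8 probe set 1416714_PM_at read 10.27, 10.56 and 10.19 in the wild-type and 10.32, 10.42 and 10.18 in the knockout-labelled MDPs, so those pools are called knockout-labelled throughout. Without knowing which part of the gene was deleted, the probe set cannot check the label. It read 5.49 and 6.25 in the VENUS-negative MDPs and 10.72 to 11.10 in the VENUS-positive MDPs. Wild-type MDP pool 3 stood apart, with a mean of 8.85 over 8 granulocyte markers where the lowest wild-type pool had 4.80, and a mean of 8.02 over 7 erythroid and megakaryocyte markers. Of the granulocyte markers, Csf3r (7.08 against 6.52 and 7.44) and Cxcr2 (5.23 against 4.93 and 5.09) read much as in wild-type pools 1 and 2. Its mean over 3 mast cell and basophil markers was 6.32, where the lowest wild-type pool had 2.78. The VENUS-negative pools had means of 9.10 and 9.93 over the same erythroid and megakaryocyte markers, against 4.84 to 5.25 in the VENUS-positive pools, and 6.16 and 6.34 over 6 MDP markers, against 8.41 to 8.65. Irf8 itself was among those 6 markers, and Kit, also among them, went the other way, at 8.20 and 8.38 against 6.62 to 7.40. The spleen granulocytes had means of 12.0 to 12.3 over the granulocyte markers and also of 7.33 to 8.14 over 5 NK cell markers, against 4.88 to 5.16 in the macrophages. The macrophages had means of 7.22 to 7.27 over 5 macrophage markers, against 5.48 to 6.02 in the granulocytes. Of the 5, Csf1r (9.70 to 9.93), Cd68 (9.88 to 10.15) and Adgre1 (7.82 to 8.16) were high in them, while C1qa (4.17 to 4.48) and Mertk (3.97 to 4.47) lay near the median of an array (4.33 to 4.48). Over the granulocyte markers, macrophage pools 1 to 3 had means of 8.30, 6.70 and 7.42, against 5.10, 4.80 and 8.85 in wild-type MDP pools 1 to 3.

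DNMT1 copies methylation of CG pairs onto the new strand after DNA replication, and UHRF1 recognises hemimethylated DNA and brings DNMT1 to it. DNMT3A and DNMT3B place methyl groups on unmethylated DNA, and TET1, TET2 and TET3 oxidise 5-methylcytosine, a step towards its removal. EZH2 and EZH1 are alternative catalytic subunits of PRC2, which methylates lysine 27 of histone H3, and DNMT3A, TET2 and EZH2 are known for mutations in blood cancers. EZH2 is the form typical of dividing cells, and EZH1 is also found in resting cells.

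The genes divided by direction when mature spleen cells were set against wild-type MDPs. Dnmt1, Uhrf1, Dnmt3b and Ezh2 were lower in macrophages and in granulocytes, in all 6 of their probe sets. Tet2 was higher in both cell types by its brighter probe set, and Ezh1 was higher in granulocytes by 2 of its 4 probe sets. Dnmt3a was lower in granulocytes by 4 of its 5 probe sets, and Tet3 was not called in either comparison. A probe set was called at an adjusted p under 0.05 in limma's test over all 45037 probe sets. In macrophages against wild-type MDPs, 8 of the 18 probe sets were called, covering 5 genes, where 18.9% of all probe sets were called. The 2 higher probe sets stand beside 9.61% higher over the table and the 6 lower ones beside 9.28% lower. In granulocytes against wild-type MDPs, 13 of 18 were called, covering 7 genes, where 38.4% of all probe sets were called, with 3 higher beside 20.4% of the table and 10 lower beside 17.9%. The median difference over the 18 probe sets was -0.46 in macrophages and -0.93 in granulocytes, in log2 units, against 0.00 and 0.11 over all probe sets. Both comparisons use the same 3 wild-type MDP pools. Tissue and maturation cannot be told apart here, since all MDPs were from bone marrow and all mature cells from spleen, and in pools of cells, fewer cells of a type and less RNA per cell cannot be told apart.

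**Figure D1:**
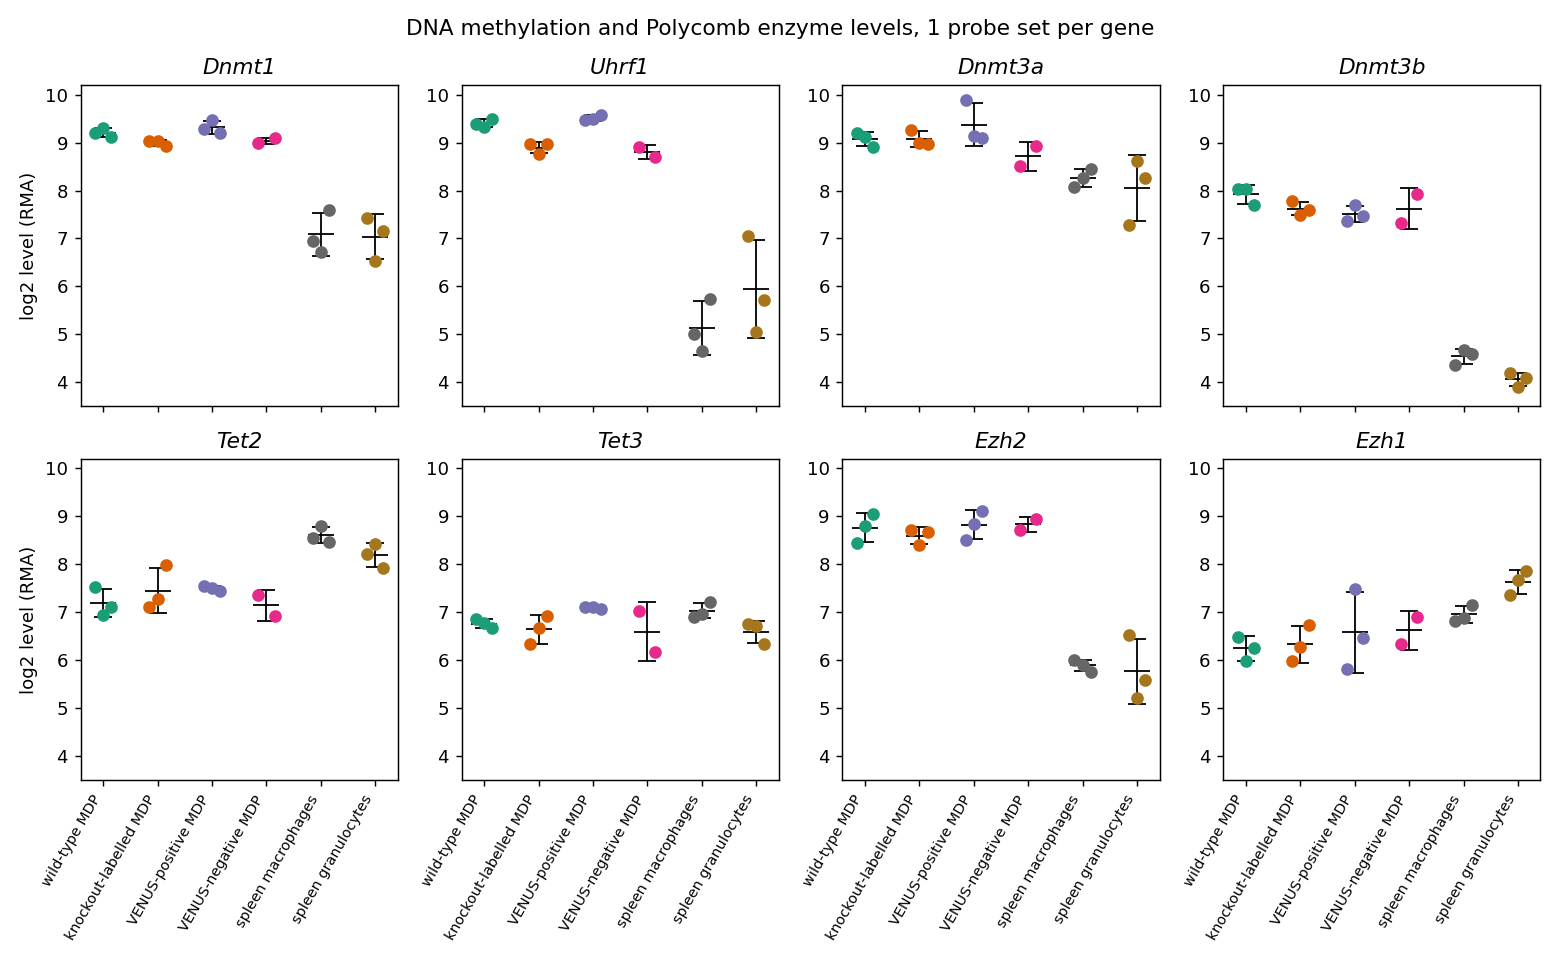
Level of 8 enzyme genes by pool, each by the probe set that was brightest on average across the 17 arrays. The vertical axis is the deposited log2 RMA level, points are pools, horizontal lines are group means and bars are ± SD (n = 3, or 2 for VENUS-negative MDPs). Dnmt1, Uhrf1, Dnmt3b and Ezh2 lie lower in all 6 spleen pools than in all 11 MDP pools, and Tet2 lies at 7.93 to 8.79 in the spleen pools and 6.92 to 7.97 in the MDP pools.

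Promoter sequences of the members were read from RefSeq (GRCm38.p6) and searched for sites of E2F factors, which are known to drive genes of the S phase. The search is a description of sequence, and a part of E2F factors in the levels was not tested. Each window held 250 bases before and 50 after an annotated transcript start, and the 9 genes had 14 windows. The windows were searched on both strands for 4 forms of the E2F site, TTTCCCGC, TTTGGCGC, TTTCGCGC and TTTGCCGC. Of the 9 genes, 3 had a match (Dnmt1, Uhrf1 and Ezh2, each in 1 window), against 704 of 27025 genes in the table, and 2.26% of all 32851 windows held one. Dnmt1 held TTTCGCGC and TTTGGCGC, Uhrf1 only TTTCGCGC and Ezh2 only TTTGGCGC, so no single form was found in all 3. The 30 bases around each match are shown 5′ to 3′ on the gene's strand, with the match in capitals.
Dnmt1 upstream match: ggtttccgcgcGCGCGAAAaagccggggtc
Dnmt1 downstream match: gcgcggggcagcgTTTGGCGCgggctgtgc
Uhrf1: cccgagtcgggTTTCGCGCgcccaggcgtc
Ezh2: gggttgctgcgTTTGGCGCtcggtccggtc

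The upstream Dnmt1 stretch lies at chr9:20952824-20952853 on the minus strand, with TTTCGCGC on the opposite strand at 219 to 212 bases before the third of its annotated starts, itself downstream of the other starts. The downstream Dnmt1 stretch lies at chr9:20952574-20952603, where TTTGGCGC takes transcribed bases 34 to 41. The Uhrf1 stretch lies at chr17:56304117-56304146 on the plus strand, with TTTCGCGC at 185 to 178 bases before the second annotated start, and the Ezh2 stretch at chr6:47595009-47595038 on the minus strand, with TTTGGCGC at transcribed bases 4 to 11. No match was found in the windows of Dnmt3a, Dnmt3b, Tet1, Tet2, Tet3 or Ezh1, which says only that these letters are not in these windows. All 3 matched windows were rich in CG pairs (33, 33 and 31), but so were windows without a match, with 57 for Tet2 and 30 for Dnmt3b. The median was 26.5 over the 14 windows of the members and 7 over all windows. Every form searched holds a CG pair, and matches in windows of like CG content were not counted.

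Of the 2 genes of maintenance methylation, Dnmt1 had 1 probe set, 1422946_PM_a_at. It read 9.20, 9.30 and 9.12 in wild-type, 9.02, 9.03 and 8.92 in knockout-labelled, 9.27, 9.48 and 9.20 in VENUS-positive and 8.99 and 9.08 in VENUS-negative MDPs. The macrophage pools read 6.95, 6.73 and 7.59, and the granulocyte pools 7.44, 6.52 and 7.15. The 11 MDP pools thus lay within 8.92 to 9.48 and the 6 spleen pools within 6.52 to 7.59, with no overlap. Dnmt1 was lower than in wild-type MDPs by 4.34-fold in macrophages (log2 difference -2.12 ± 0.22 SE, adjusted p = 1.08e-05) and by 4.50-fold in granulocytes (-2.17 ± 0.22 SE, adjusted p = 2.99e-06). The macrophages minus granulocytes difference was 0.05 (95% interval -0.43 to 0.54, adjusted p = 0.893).

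Uhrf1 had the largest difference of the 18 probe sets in macrophages, by 1415810_PM_at. This probe set read 9.39, 9.33 and 9.49 in wild-type, 8.96, 8.76 and 8.96 in knockout-labelled, 9.46, 9.48 and 9.58 in VENUS-positive and 8.91 and 8.71 in VENUS-negative MDPs. It read 5.01, 4.65 and 5.74 in macrophages and 7.06, 5.06 and 5.72 in granulocytes, where pool 1 stood above the other 2 pools. The level was lower in macrophages (-4.27 ± 0.37 SE, adjusted p = 1.88e-06) and in granulocytes (-3.46 ± 0.37 SE, adjusted p = 4.44e-06). Macrophage pool 2 (4.65) read close to the median of an array (4.33 to 4.48), so no fold is given for this probe set. The other Uhrf1 probe set, 1415811_PM_at, ran from 7.83 to 9.04 over the MDP pools and from 4.94 to 6.56 over the spleen pools, again without overlap. It was 11.9-fold lower in macrophages (-3.57 ± 0.32 SE, adjusted p = 2.1e-06) and 7.71-fold lower in granulocytes (-2.95 ± 0.32 SE, adjusted p = 4.14e-06). Between macrophages and granulocytes the 2 probe sets differed by -0.81 (adjusted p = 0.134) and -0.62 (adjusted p = 0.175), and both values turned on single granulocyte pools. They were -1.25 (adjusted p = 0.0176) and -0.95 (adjusted p = 0.0441) without granulocyte pool 2, and -0.25 (adjusted p = 0.512) and -0.28 (adjusted p = 0.528) without granulocyte pool 1.

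Of the 2 enzymes of new methylation, Dnmt3b had the larger differences. Its brighter probe set, 1449052_PM_a_at, read 8.03, 8.03 and 7.70 in wild-type, 7.77, 7.50 and 7.60 in knockout-labelled, 7.36, 7.71 and 7.46 in VENUS-positive and 7.32 and 7.92 in VENUS-negative MDPs. The macrophages read 4.37, 4.67 and 4.59 and the granulocytes 4.19, 3.91 and 4.09, which are close to or below the median of an array. The highest spleen pool (4.67) was far below the lowest MDP pool (7.32). The differences were -3.38 ± 0.17 SE in macrophages (adjusted p = 1.39e-08) and -3.85 ± 0.17 SE in granulocytes (adjusted p = 1.1e-09). No fold is given, since the spleen levels were not shown to be above background. These were the smallest adjusted p-values among the 18 probe sets in both comparisons. The second Dnmt3b probe set, 1418351_PM_a_at, ran from 5.81 to 7.17 in the MDP pools and from 4.52 to 4.72 in the spleen pools. Its differences were smaller, -1.92 ± 0.22 SE in macrophages (adjusted p = 2.58e-05) and -1.82 ± 0.22 SE in granulocytes (adjusted p = 1.65e-05), with spleen levels near the array median.

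Dnmt3a showed smaller differences, and its 5 probe sets did not all pass. The brightest, 1423064_PM_at, read 9.20, 9.11 and 8.90 in wild-type MDPs, 8.07, 8.26 and 8.44 in macrophages and 7.27, 8.61 and 8.26 in granulocytes. All mature pools were below the wild-type MDP pools, but VENUS-negative pool 1 (8.50) lay below granulocyte pool 2. The difference was -1.02 ± 0.29 SE in granulocytes (2.03-fold lower, adjusted p = 0.0124) and -0.81 ± 0.29 SE in macrophages (adjusted p = 0.0687). Without granulocyte pool 1 the granulocyte difference was -0.64 (adjusted p = 0.0473). In granulocytes, 1423065_PM_at differed by -0.95 ± 0.28 SE (adjusted p = 0.0157), 1423066_PM_at by -0.90 ± 0.19 SE (adjusted p = 0.00189) and 1423063_PM_at by -1.46 ± 0.31 SE (adjusted p = 0.00179). Over the 11 MDP pools these 3 ran from 6.77 to 8.08, 6.91 to 7.59 and 6.15 to 7.52, and over the 6 spleen pools from 6.27 to 7.46, 5.85 to 7.01 and 5.28 to 6.81, so each overlapped. The fifth, 1460324_PM_at, differed by -0.60 ± 0.32 SE (adjusted p = 0.157). The call of 1423065_PM_at in granulocytes was lost without granulocyte pool 2 (-0.70, adjusted p = 0.0831). In a fit of only the 2 groups compared, 1423064_PM_at and 1423065_PM_at were called in macrophages (adjusted p = 0.00567 and 0.0272) and not in granulocytes (adjusted p = 0.0591 and 0.0524). In the fit of all groups, the macrophage difference of 1423064_PM_at passed without granulocyte pool 1 (adjusted p = 0.0137), granulocyte pool 2 (0.0418) or VENUS-positive pool 1 (0.0464), and its adjusted p reached 0.205 without macrophage pool 1. That of 1423065_PM_at passed without macrophage pool 3 (-0.99, adjusted p = 0.0412) or granulocyte pool 3 (0.0259), and was -0.62 (adjusted p = 0.26) without macrophage pool 1.

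Macrophages minus granulocytes gave 1 call among the 18 probe sets, where 24.9% of all probe sets were called (13.6% higher and 11.3% lower in macrophages). It was Dnmt3a 1423066_PM_at, which read 6.62, 7.01 and 6.88 in macrophages and 6.12, 5.85 and 6.60 in granulocytes. The pools did not overlap, by a gap smaller than the spread within either group, and the difference was 0.65 ± 0.19 SE (adjusted p = 0.0238). The call rested on single pools: it was lost without macrophage pool 2 (adjusted p = 0.0983), macrophage pool 3 (0.071), granulocyte pool 1 (0.0557) or granulocyte pool 2 (0.113), and in the fit of only these 2 groups (0.0718). Dnmt3b 1449052_PM_a_at was next, higher in all 3 macrophage pools by 0.48 (adjusted p = 0.053), and passed without wild-type pool 3 (adjusted p = 0.0496) or either VENUS-negative pool (0.0296 each), with 0.40 (adjusted p = 0.171) without granulocyte pool 2. Tet2 1438781_PM_at, at 0.72 (adjusted p = 0.0632), passed without wild-type pool 2 (0.0145) or 3 (0.0474), with 0.59 (adjusted p = 0.213) without macrophage pool 2. Dnmt3a 1423063_PM_at, at 0.79 (adjusted p = 0.0807), passed without macrophage pool 1 (1.04, adjusted p = 0.0375) or granulocyte pool 2 (1.05, adjusted p = 0.0349), with 0.59 (adjusted p = 0.224) without granulocyte pool 1. The median difference over the 18 probe sets was 0.15, against -0.10 over all probe sets.

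Among the TET genes, Tet2 ran the other way from Dnmt1. Its brighter probe set, 1455300_PM_at, read 7.52, 6.94 and 7.12 in wild-type, 7.10, 7.28 and 7.97 in knockout-labelled, 7.54, 7.50 and 7.44 in VENUS-positive and 7.37 and 6.92 in VENUS-negative MDPs. The macrophages read 8.56, 8.79 and 8.46 and the granulocytes 8.22, 8.42 and 7.93. Only knockout-labelled pool 3 (7.97) reached the spleen range, just above granulocyte pool 3. Tet2 was higher than in wild-type MDPs by 2.66-fold in macrophages (1.41 ± 0.22 SE, adjusted p = 3.54e-04) and by 2.00-fold in granulocytes (1.00 ± 0.22 SE, adjusted p = 0.00265), and both calls held in each of 17 fits that left out 1 pool. The dimmer probe set, 1438781_PM_at, read 4.82, 5.80 and 4.62 in wild-type MDPs, 5.75, 6.19 and 5.81 in macrophages and 5.20, 5.17 and 5.21 in granulocytes. It differed by 0.83 ± 0.27 SE in macrophages (adjusted p = 0.0424) and by 0.11 ± 0.27 SE in granulocytes (adjusted p = 0.782). The macrophage call held in 5 of 17 such fits, with adjusted p-values from 0.00169 to 0.186. It was lost without any 1 macrophage pool (0.0658, 0.168 and 0.0766 for pools 1 to 3), without wild-type pool 1 (0.158) and without wild-type pool 3, where the difference was 0.60 (adjusted p = 0.186). It also missed the threshold, at 0.051 to 0.0531, without granulocyte pool 1, 2 or 3, knockout-labelled pool 1, VENUS-positive pool 2 or VENUS-negative pool 1 or 2. The count of called members in macrophages was 7 without wild-type pool 3, where 16.5% of all probe sets were called.

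Tet3, by 1439324_PM_at, read 6.85, 6.77 and 6.67 in wild-type MDPs, 6.91, 6.97 and 7.21 in macrophages and 6.75, 6.71 and 6.33 in granulocytes. The macrophages all read above and the granulocytes overlapped the wild-type MDPs. The differences were 0.27 (95% interval -0.17 to 0.71, adjusted p = 0.475) and -0.16 (95% interval -0.60 to 0.27, adjusted p = 0.562).

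The 2 PRC2 catalytic subunits moved in opposite directions in granulocytes. Ezh2, by 1416544_PM_at, read 8.45, 8.79 and 9.05 in wild-type, 8.72, 8.40 and 8.67 in knockout-labelled, 8.51, 8.85 and 9.11 in VENUS-positive and 8.72 and 8.94 in VENUS-negative MDPs. The macrophages read 6.01, 5.90 and 5.76 and the granulocytes 6.53, 5.21 and 5.59, all below every MDP pool. Ezh2 was 7.34-fold lower in macrophages (-2.87 ± 0.27 SE, adjusted p = 3.92e-06) and 7.96-fold lower in granulocytes (-2.99 ± 0.27 SE, adjusted p = 8.56e-07).

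Ezh1, by 1449023_PM_a_at, read 6.49, 5.98 and 6.26 in wild-type, 5.98, 6.28 and 6.74 in knockout-labelled, 5.81, 7.49 and 6.46 in VENUS-positive and 6.33 and 6.91 in VENUS-negative MDPs. It read 6.82, 6.89 and 7.16 in macrophages and 7.36, 7.67 and 7.86 in granulocytes. The granulocytes lay above every MDP pool except VENUS-positive pool 2. The difference was 1.39 ± 0.34 SE in granulocytes (2.61-fold higher, adjusted p = 0.00467) and 0.71 ± 0.34 SE in macrophages (adjusted p = 0.185, and 0.0203 with only the arrays of the 2 groups). By 1418290_PM_a_at, the wild-type MDPs read 6.76, 6.41 and 5.23 and the granulocytes 7.26, 7.38 and 7.45, a difference of 1.23 ± 0.32 SE (adjusted p = 0.00687) that was 0.78 (adjusted p = 0.0229) without wild-type pool 3, the pool that stood apart by its markers. The macrophage difference of that probe set was 0.88 ± 0.32 SE (adjusted p = 0.0717), with 1.19 (adjusted p = 0.0193) without wild-type pool 1 and 0.43 (adjusted p = 0.301) without wild-type pool 3. The remaining Ezh1 probe sets, 1429630_PM_at and 1429629_PM_at, ran from 2.94 to 4.96 and from 2.53 to 3.48 over all pools, near the lower quartile of an array (3.18 to 3.42), and no fold is given for them.

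**Figure D2:**
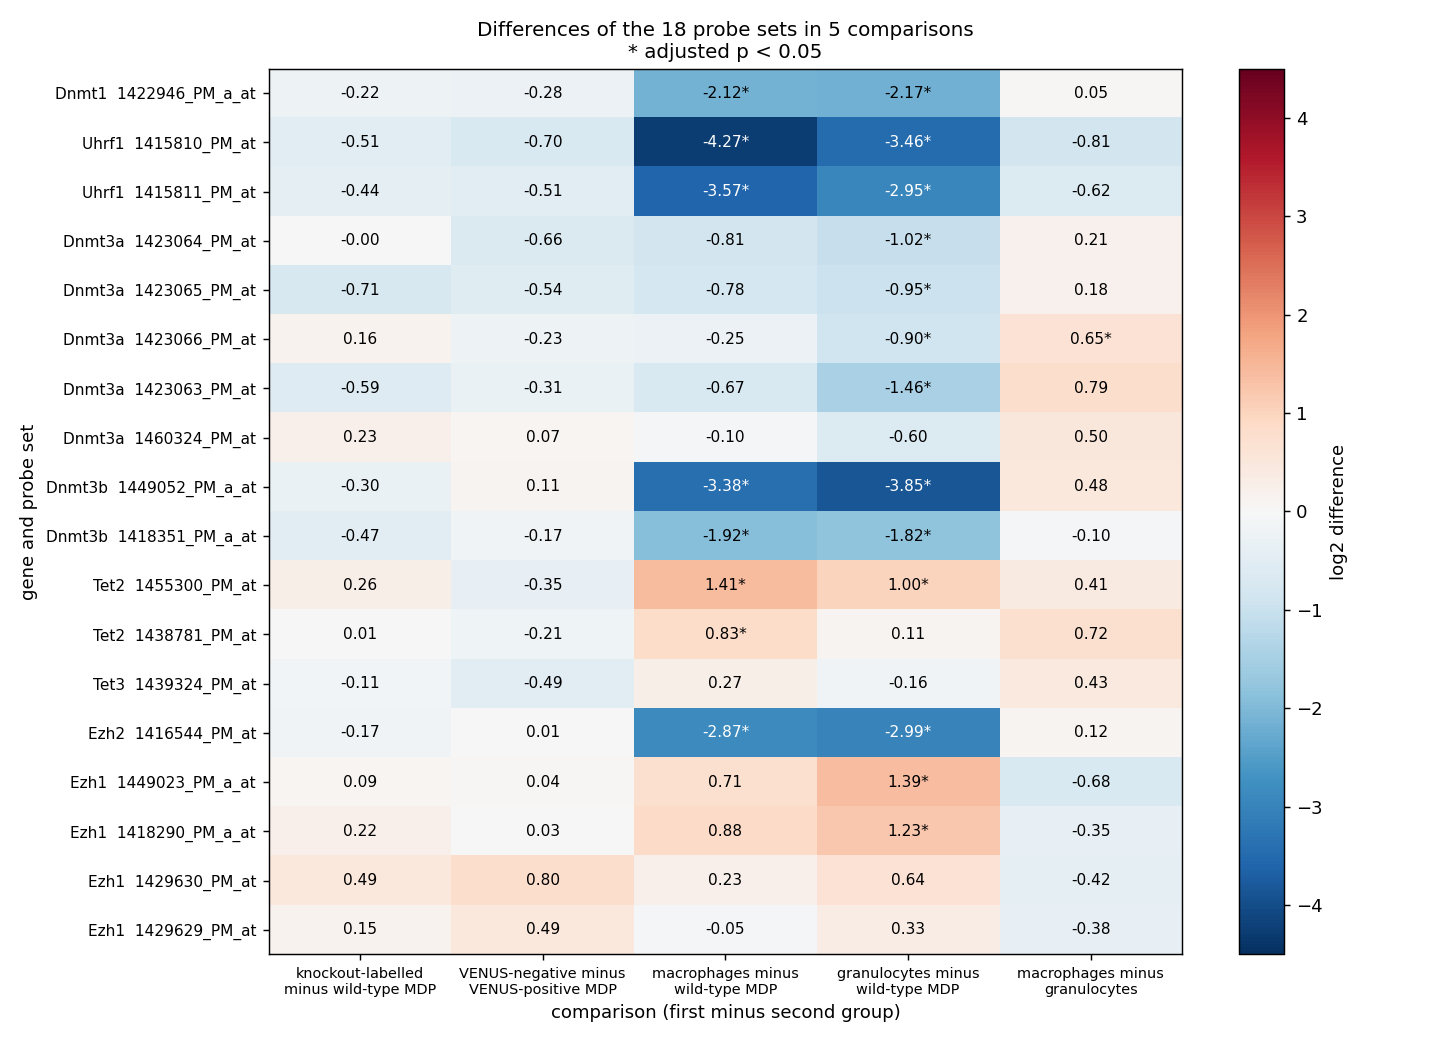
Log2 differences of the 18 probe sets (vertical axis) in 5 comparisons (horizontal axis), with red for higher and blue for lower in the first group and a star for an adjusted p under 0.05. The stars lie in the 3 columns that hold spleen cells, with 8, 13 and 1 of them, and the 2 columns between MDP groups hold none.

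Between MDP groups, no member was called. For knockout-labelled minus wild-type MDPs, limma called 0 of 18 probe sets, where 0.575% of all probe sets were called. In the same limma test, 1 of 18 had an unadjusted p under 0.05, beside 3628 of all 45037. That 1 was Dnmt3a 1423065_PM_at, which read 7.65, 7.84 and 7.71 in the wild-type and 6.77, 6.91 and 7.40 in the knockout-labelled pools (-0.71 ± 0.28 SE, adjusted p = 0.484). The brightest Dnmt3a probe set differed by 0.00 (95% interval -0.63 to 0.62). Uhrf1 1415810_PM_at differed by -0.51 (95% interval -1.31 to 0.29, adjusted p = 0.861), although its pools did not overlap and the knockout-labelled pools spanned 8.76 to 8.96 against 9.33 to 9.49. In limma's fit of only these 2 groups, its SE was 0.12, its unadjusted p 0.00507 and its adjusted p 0.279. Pools that all lay below the wild-type pools were seen in 3 of the 18 probe sets (those of Dnmt1, Uhrf1 and Dnmt3a just named), where 6.61% of all probe sets did so, and pools all above in 0 of 18, beside 7.01% of all. The 95% interval was -0.70 to 0.26 for Dnmt1, -0.76 to 0.41 for Ezh2, -0.66 to 0.07 for Dnmt3b 1449052_PM_a_at and -0.22 to 0.74 for Tet2 1455300_PM_at. The median over the 18 probe sets was -0.06, against 0.01 over all. The mean of the erythroid and megakaryocyte markers was 3.93 to 4.19 in the knockout-labelled and 5.16 to 8.02 in the wild-type pools. That of the granulocyte markers was 6.53 to 7.26, against 5.10, 4.80 and 8.85 in wild-type pools 1 to 3, and the part of either in the values was not tested.

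VENUS-negative minus VENUS-positive MDPs gave 0 calls by limma among the 18 probe sets as well, where 4.44% of all probe sets were called. In the same limma test, 2 of 18 had an unadjusted p under 0.05 (Tet3 and Ezh1 1429629_PM_at), beside 6754 of all 45037. Uhrf1 1415810_PM_at read 8.91 and 8.71 without VENUS and 9.46, 9.48 and 9.58 with it, a difference of -0.70 ± 0.42 SE (adjusted p = 0.5). Its pools did not overlap. In limma's fit of only these 2 groups, its SE was 0.16, its unadjusted p 0.0053 and its adjusted p 0.148. Tet3 read 7.03 and 6.17 without VENUS and 7.11, 7.10 and 7.06 with it. Its difference of -0.49 (adjusted p = 0.33) rested on which VENUS-negative pool was kept: it was -0.92 (adjusted p = 0.0438) without pool 1 and -0.06 (adjusted p = 0.979) without pool 2. The VENUS-negative pools lay all below in 8 of the 18 probe sets and all above in 2, both of Ezh1, where 14.6% and 13.1% of all probe sets did so. Dnmt1 differed by -0.28 (95% interval -0.82 to 0.26), Dnmt3b 1449052_PM_a_at by 0.11 (-0.29 to 0.52) and Ezh2 by 0.01 (-0.65 to 0.66). The median over the 18 probe sets was -0.22, against -0.01 over all. These 2 groups also differed in the erythroid, megakaryocyte and MDP marker means given above. The mean of 3 mast cell and basophil markers was 6.98 and 7.39 without VENUS and 2.64 to 3.00 with it, and that of the macrophage markers 4.06 to 4.07 and 4.99 to 5.16. The part of these markers in the values was not tested.

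The remaining pairs of groups were counted in the same way. Among MDP groups, 0 of 18 probe sets were called by limma in VENUS-positive minus wild-type (0% of all called), in VENUS-negative minus wild-type (3.99%), in VENUS-positive minus knockout-labelled (1.48%) and in VENUS-negative minus knockout-labelled (4.74%). At an unadjusted p under 0.05, limma gave 1, 1, 4 and 1 of the 18 in the same order. Over all 45037 probe sets it gave 2661, 6726, 4665 and 6684. Macrophages differed in 8 probe sets from knockout-labelled MDPs (18% of all called), in 10 from VENUS-positive (18.4%) and in 8 from VENUS-negative MDPs (18.5%). Granulocytes differed in 12 from knockout-labelled (36.8% of all), in 13 from VENUS-positive (36.8%) and in 10 from VENUS-negative MDPs (33%). The spleen pools lay all below the MDP pools in 6 of 18 probe sets, where 6.65% of all did so, and all above in 0 of 18, beside 4.81%. The 6 were those of Dnmt1, Uhrf1, Dnmt3b and Ezh2.

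Those 6 probe sets were picked because their spleen and MDP pools did not overlap. A step between MDP and spleen groups thus followed from the choice and adds no support. Ordered by group mean, only 1 step passed in each of the 6, the one from the lowest MDP group to the highest spleen group. It was 1.90 for Dnmt1 (knockout-labelled MDPs to macrophages, adjusted p = 2.76e-05) and 2.70 for Ezh2 (the same groups, adjusted p = 6.36e-06). It was 2.86 and 2.45 for the Uhrf1 probe sets (VENUS-negative MDPs to granulocytes, adjusted p = 9.06e-05 and 8.05e-05). For Dnmt3b it was 2.97 (VENUS-positive MDPs to macrophages, adjusted p = 3.94e-08) and 1.35 (knockout-labelled MDPs to granulocytes, adjusted p = 2.61e-04). For Tet2 1455300_PM_at the step from granulocytes down to VENUS-positive MDPs passed (0.69, adjusted p = 0.0245). No neighbouring groups differed past the threshold for Tet3, Ezh1 or Tet2 1438781_PM_at, nor for Dnmt3a apart from 1423066_PM_at.

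Genes that act beside the methylation enzymes were split. Of 20 listed partners and readers, 19 had a probe set. Over all 17097 genes at 1 probe set per gene, 22.4% were called in macrophages, 43.8% in granulocytes and 29.6% between the mature cells, and 0.784% and 5.4% for the knockout label and VENUS, beside which the counts of this and the following lists stand. In macrophages against wild-type MDPs, 3 were higher and 4 lower (median -0.02). Hells, a chromatin remodeller needed for normal DNA methylation, was lower, at -3.16 ± 0.25 SE (adjusted p = 6.89e-07). In both spleen cell types Hells read at or below the array median (3.59 to 4.04 and 4.08 to 4.34), so its differences have no fold. Tdg, the glycosylase that excises oxidised methylcytosine, was lower, at -2.00 ± 0.24 SE (adjusted p = 2.92e-05), and Mbd4, a glycosylase that repairs G-T mismatches at CG pairs, at -1.70 ± 0.24 SE (adjusted p = 1.58e-04). Idh2, a mitochondrial enzyme that makes the TET cofactor 2-oxoglutarate, was higher by 1.19 ± 0.25 SE (adjusted p = 0.0028), and the methyl-CG readers Zbtb4 and Mbd2 by 0.76 and 0.67. In granulocytes, 4 were higher and 8 lower (median 0.04). The stress-response genes Gadd45a, Gadd45g and Gadd45b, linked to demethylation in some studies, were higher by 4.98 ± 0.44 SE (adjusted p = 6.79e-07), 2.45 ± 0.37 SE (adjusted p = 1.21e-04) and 1.96 ± 0.32 SE (adjusted p = 2.22e-04). In wild-type MDPs, Gadd45a (mean 4.46) and Gadd45g (mean 4.60) read near the array median, so their differences have no fold. Hells was lower, at -2.82 ± 0.25 SE, the reader Mbd1 at -2.64 ± 0.55 SE and Tdg at -2.23 ± 0.24 SE.

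The Gadd45 genes also separated the mature cells, in which Gadd45a was lower in macrophages than in granulocytes by -5.27 ± 0.44 SE (adjusted p = 8.76e-07), Gadd45b by -1.98 and Gadd45g by -1.70. Gadd45a had a mean of 4.17 in macrophages, below the array median. In the same comparison, 5 of the 19 were higher and 4 lower (median 0.14), with Idh1 higher by 2.56 ± 0.36 SE, Uhrf2 by 1.03 and Idh2 by 0.83. Of the pairs of MDP groups, only those of the knockout label and VENUS were counted for this and the following lists. Limma called 0 of 19 for the knockout label (3 with an unadjusted p under 0.05, median 0.04). Over all 45037 probe sets, limma gave an unadjusted p under 0.05 to 3628 for the knockout label and 6754 for VENUS. The unadjusted counts of the lists stand beside these on an unlike base, since the lists hold only the brightest probe set of each gene. Unadjusted counts over all genes at 1 probe set per gene were not made. Without VENUS, Gadd45a was higher by 3.10 ± 0.49 SE (adjusted p = 0.00173, pools at 6.80 to 7.23 against 3.51 to 4.31) and Hells lower, at -1.06 ± 0.28 SE (adjusted p = 0.0445, pools at 5.96 to 6.38 against 7.02 to 7.46), and the other 17 were not called (median 0.05).

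Of 9 further PRC2 subunits listed, 8 had a probe set, and they did not all move with Ezh2. In macrophages, 2 were higher and 4 lower (median -0.88), and in granulocytes 2 were higher and 6 lower (median -1.32). The histone-binding subunits Rbbp7 and Rbbp4 were lower, at -2.05 ± 0.19 SE (adjusted p = 3.3e-06) and -1.80 ± 0.28 SE (adjusted p = 3.0e-04) in macrophages and at -2.99 ± 0.19 SE (adjusted p = 2.91e-08) and -1.71 ± 0.28 SE (adjusted p = 2.12e-04) in granulocytes. The accessory subunit Mtf2 was lower, at -1.98 and -2.23 in the same order. Eed, the core subunit that binds methylated lysine 27, was higher, by 0.96 ± 0.22 SE (adjusted p = 0.00589) in macrophages and 0.63 ± 0.22 SE (adjusted p = 0.0361) in granulocytes. Jarid2, which helps PRC2 find its targets, was higher in macrophages by 1.29 ± 0.23 SE, and Phf1, an accessory subunit, was higher in granulocytes by 2.99 ± 0.30 SE (adjusted p = 2.08e-06). Macrophages exceeded granulocytes in Jarid2 by 1.93, Aebp2 by 1.29 and Rbbp7 by 0.94, and were lower in Phf1, at -2.54 (3 higher and 1 lower, median 0.29). None of the 8 was called by limma for the knockout label or VENUS, with 1 at an unadjusted p under 0.05 for the knockout label (median -0.18) and 1 for VENUS (median 0.01).

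PRC1, the complex that ubiquitinates histone H2A, had 18 of its 21 listed subunits on the array. In macrophages, 0 were higher and 7 lower (median -0.87), among them Pcgf6 (adjusted p = 6.8e-07), Yaf2 (-2.14 ± 0.51 SE) and Cbx6 (-2.02 ± 0.18 SE). In granulocytes, where 43.8% of all genes were called, 2 were higher and 9 lower (median -0.73), with Pcgf6 lower (adjusted p = 2.21e-08), Cbx6 at -2.82 ± 0.18 SE and Bmi1, known for stem cell self-renewal, at -2.61 ± 0.25 SE. Pcgf6 read 2.98 to 3.20 in granulocytes, below or within the range of the arrays' lower quartiles, and 3.74 to 4.24 in macrophages, below the array median, so no size is given for it. The 2 higher ones were Rybp (0.87) and Cbx7 (0.65). Macrophages against granulocytes gave 5 higher (among them Phc2 by 1.38, Bmi1 by 1.23 and L3mbtl2 by 1.16) and 2 lower (Yaf2 by -1.95 and Rybp by -1.01), with a median of 0.12. No PRC1 gene was called by limma for the knockout label or VENUS, with 4 at an unadjusted p under 0.05 for the knockout label (median -0.08) and 2 for VENUS (median -0.17).

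Of the enzymes that remove the Polycomb marks and their cofactors, 4 of 5 had a probe set. Bap1, the H2A deubiquitinase, was lower in macrophages (-0.90 ± 0.21 SE) and in granulocytes (-0.98 ± 0.21 SE), and its cofactors Asxl1 and Asxl2 were 0.90 higher and -0.55 lower in granulocytes. The medians were -0.43 in macrophages (0 higher, 1 lower) and -0.51 in granulocytes (1 higher, 2 lower). Macrophages exceeded granulocytes in Asxl2 by 0.90 and were lower in Asxl1, at -1.06 (median -0.07). None of the 4 was called by limma for the knockout label or VENUS, and 0 had an unadjusted p under 0.05 in either comparison (medians 0.01 for the knockout label and -0.13 for VENUS). Without wild-type pool 3, the counts of these lists kept within 1 of those given, for example 5 in place of 6 lower PRC2 genes and 1 in place of 2 higher PRC1 genes in granulocytes.

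**Figure D3:**
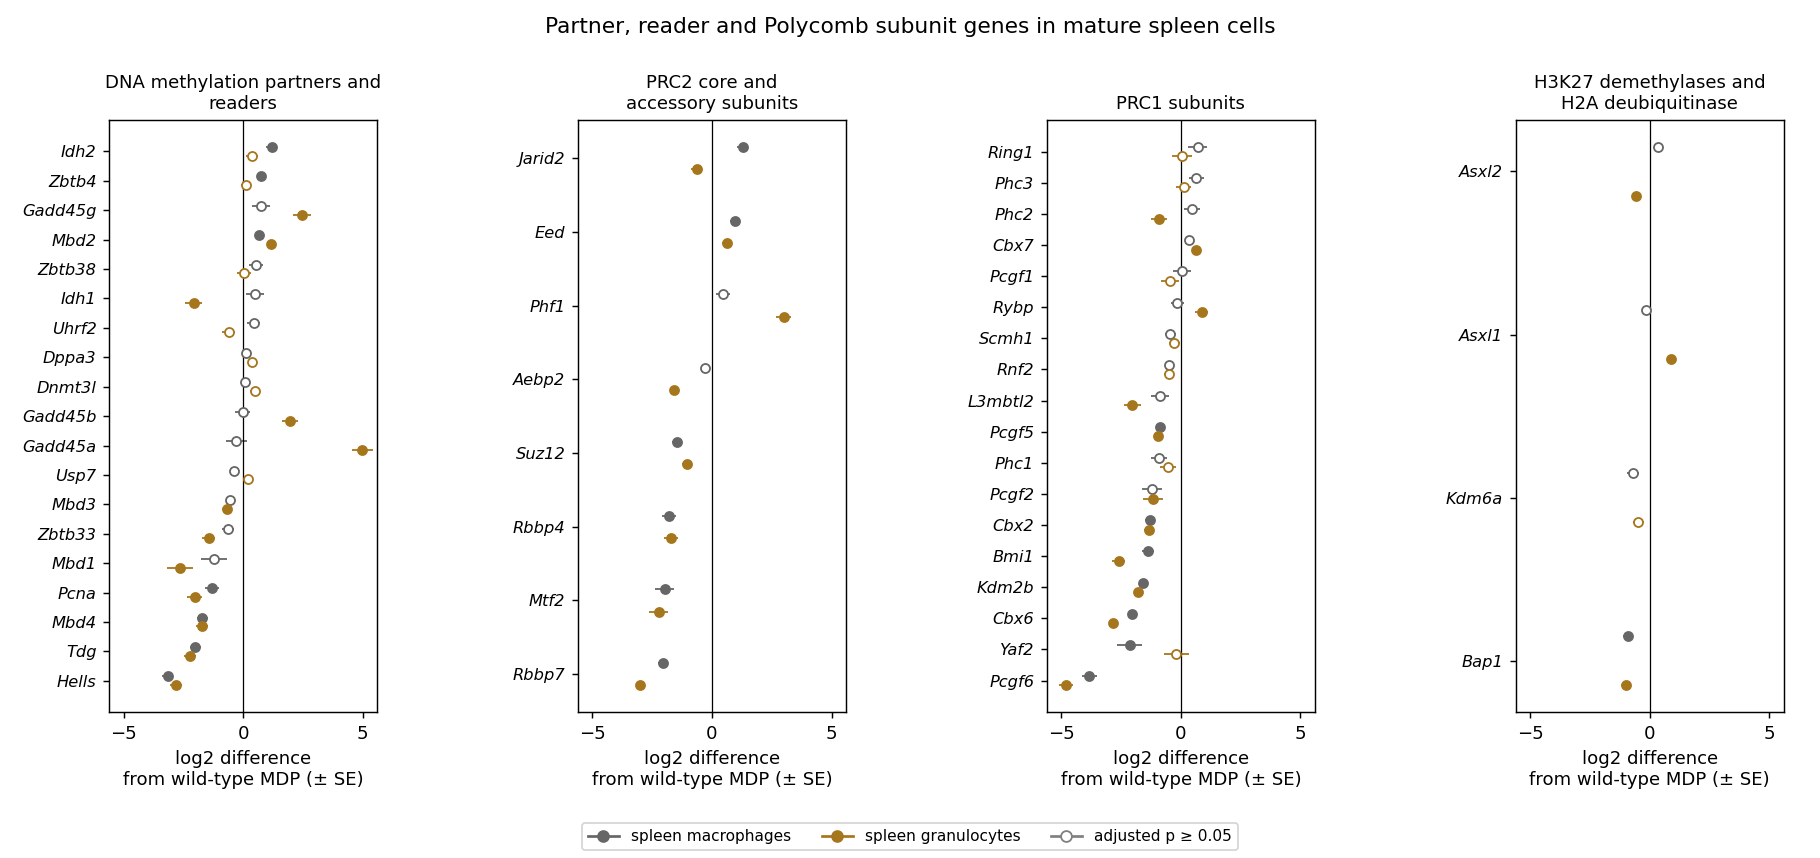
Log2 difference (horizontal axis, ± SE) from wild-type MDPs of each gene of 4 lists (vertical axis) in spleen macrophages and spleen granulocytes, with filled points for an adjusted p under 0.05. Gadd45a lies at 4.98 and Phf1 at 2.99 in granulocytes, and Cbx6 at -2.02 and -2.82 in the 2 cell types. The 2 points of Pcgf6 are set against spleen levels below the array median, and their size is not read here.

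Genes of DNA replication and cell division were lower in the same mature cells. Of 24 listed proliferation genes, 23 had a probe set, and 22 were lower in macrophages (median -3.25) and 20 in granulocytes (median -2.38), with 0 higher in either. Mcm2, a subunit of the replicative helicase, read near the array median in macrophages (4.29 to 4.56) and was lower, at -4.68 ± 0.33 SE in macrophages (adjusted p = 2.57e-07) and -4.05 ± 0.33 SE in granulocytes (adjusted p = 2.85e-07). The cyclin Ccnb2 and the licensing factor Cdc6 were lower in macrophages, at -4.32 and -4.10, and the licensing factor Cdt1 and Mcm6 in granulocytes, at -3.77 and -3.44. Ccnb2 (mean 4.38) and Cdc6 (mean 4.60) also read near the array median in macrophages. Macrophages were lower than granulocytes in 8 and higher in Cdt1 (1.32 ± 0.35 SE), with a median of -0.87. The 8 were led by Ccnb2 (-2.28 ± 0.72 SE), Top2a (-2.07 ± 0.53 SE) and Mki67 (-1.94 ± 0.49 SE). No granulocyte pool was left out of these counts. The count in granulocytes was 17 without wild-type pool 3. For the knockout label and VENUS limma called none of the 23, with 2 at an unadjusted p under 0.05 for the knockout label (median -0.26) and 2 for VENUS (median -0.33).

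The mean over the 23 genes was 8.68, 8.66 and 8.89 in wild-type, 8.42, 8.34 and 8.58 in knockout-labelled, 8.67, 8.75 and 9.03 in VENUS-positive and 8.75 and 8.11 in VENUS-negative MDPs. It was 5.75, 5.16 and 5.85 in macrophages and 7.42, 5.51 and 6.37 in granulocytes. Granulocyte pool 1 was the highest spleen pool in this mean, in Uhrf1 1415810_PM_at (7.06) and in Ezh2 (6.53), and was the highest granulocyte pool in Dnmt1 (7.44). The share of cell division in the enzyme differences was not tested.

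**Figure D4:**
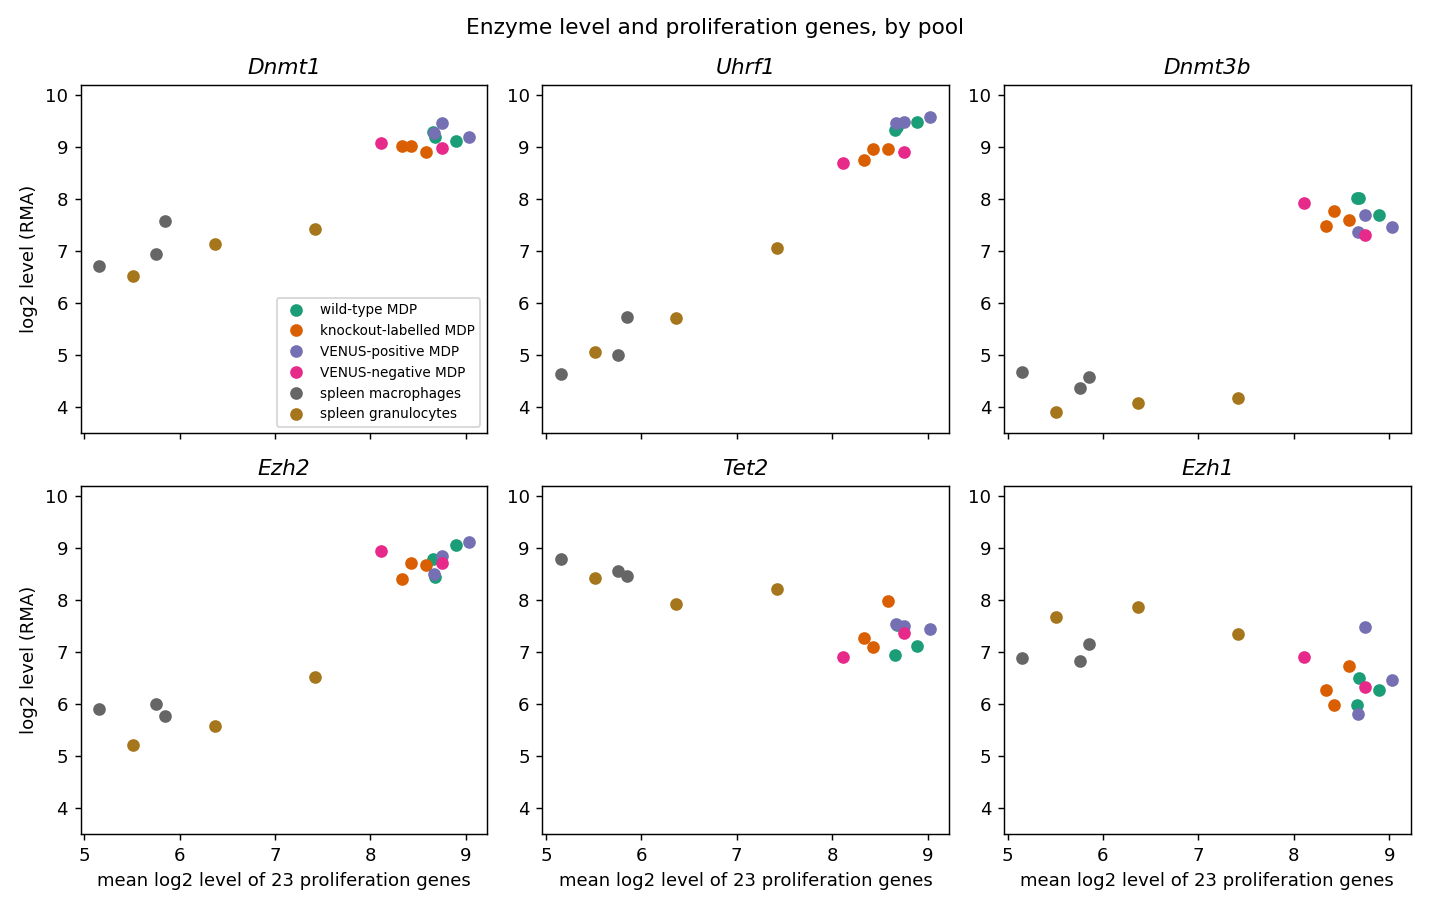
Level of 6 enzyme genes (vertical axis, log2 RMA) against the mean log2 level of 23 proliferation genes (horizontal axis), 1 point per pool, coloured by group. The MDP pools lie at 8.11 to 9.03 and the spleen pools at 5.16 to 7.42 on the horizontal axis, with Uhrf1 reaching 7.06 in the granulocyte pool at 7.42.

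The genes with the most similar profile were named for each enzyme by Pearson r over the 17 arrays, as a description, since the arrays fall into an MDP and a spleen cluster that set most of r. For Dnmt1 they were Dnajc9 (0.990), Cbx3 (0.982) and Cibar1 (0.982), and over the 11 MDP arrays alone r was 0.875, 0.804 and 0.429. For Uhrf1 they were Mcm5 (0.990, and 0.628 in MDPs), Dnajc9 (0.988, and 0.845) and Cks1b (0.985, and 0.470). For Ezh2 they were Cenpk (0.984, and 0.530), Dut (0.983, and 0.523) and Cibar1 (0.983, and 0.636). For Dnmt3b they were Dkc1, Mif and Tfpi (all 0.987, and 0.604, 0.303 and 0.339 in MDPs). The nearest to Tet2 were Spop (0.940), Arf2 (0.926) and Arhgap30 (0.913), and to Ezh1 Paxx (0.920), Fam98c (0.892) and Fbxl12 (0.865). Dnmt3a had Gcdh (0.909), Dag1 (0.897) and Tasp1 (0.891), and Tet3, whose level moved least, had Map4k4 (0.799), Gosr2 (0.761) and St3gal3 (0.756).

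Among the enzymes themselves, Dnmt1 and Uhrf1 had an r of 0.980 over all arrays and 0.719 over the MDP arrays. The r of Dnmt3b with Ezh2 was 0.973 over all arrays and 0.07 within MDPs, and that of Dnmt1 with Tet2 was -0.870 and -0.09. Ezh2 and Ezh1 had -0.683 over all arrays and 0.281 within MDPs. Of these 4 pairs, the relation within MDPs alone kept its size best for Dnmt1 and Uhrf1.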

How the data were processed

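The authors deposited RMA values in log2 units, for which the submitters' processing notes name Affymetrix Expression Console without a version. RMA corrects background, quantile-normalizes arrays and summarises probes, which compresses differences of dim probe sets. They ran from 1.69 to 13.5 over 45037 probe sets and 17 arrays, of which 0 pairs were identical, and 0 value columns were left unmapped. Symbols are those of GEO's platform annotation, which named 1 gene for 28898 probe sets, left 15588 unnamed and gave 551 more than 1 gene.

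Groups were compared by limma's two-sided test (version 3.58.1, under R 4.3.3, using lmFit then eBayes). The model held all 17 arrays and 6 group means and left 11 residual degrees of freedom. The step was tested on simulated data. Adjusted p-values are limma's after Benjamini-Hochberg over all probe sets, called under 0.05. Folds are 2 to the power of the log2 difference, SE is limma's, SD is between pools, and intervals are 95%. The p-values thus rest on how pools vary within groups, by 1 spread per probe set that all 6 groups share. Where spleen pools vary more than MDP pools, this widens the SE and intervals between MDP groups. For Uhrf1 1415810_PM_at the SD was 1.02 in granulocytes and 0.08 in wild-type MDPs. With 2 or 3 pools a group precision is limited. Levels of different probe sets were not compared.

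All member probe sets are shown. The brightest probe set on average stood for a gene in lists, likeness and figures. In each list (DNA methylation partners and readers, PRC2, PRC1, mark-removing enzymes, proliferation), up to 3 called genes per direction and comparison were named, and per enzyme the 3 genes of highest r. The members and lists were chosen with earlier results of these data known. Deviations of same-numbered pools from their group means had r from -0.07 to 0.12. With 2 or 3 pools a group this cannot show whether same-numbered pools came from the same mice, and the main fit did not pair them. Alternatives were the arrays of the 2 groups only, the pool number as a block, 1 probe set per gene, a filter on dim probe sets, quantile normalization or median centring of the arrays, trend and robust eBayes, and leaving out each pool. Leaving wild-type pool 3 out of the list counts was chosen after seeing the data. Promoters are from a RefSeq table (GRCm38.p6), and all 9 genes matched by symbol. No genome build is stated for the array.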

Additional observations from a re-analysis of the deposited data

How the results depend on the processing

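No difference of a member probe set turned its direction while called. The count of called members was 0 of 18 for the knockout label in every alternative run (0 to 0 over fits leaving out 1 pool), and 0 for VENUS apart from 1 (Tet3) without VENUS-negative pool 1 (range 0 to 1). In macrophages against wild-type MDPs it was 8, with 7 to 9 over fits leaving out 1 pool, 11 with probe sets above the median mean, 10 with only the arrays of the 2 groups (7 kept, 3 new) and 5 of 8 genes with 1 probe set per gene. In granulocytes it was 13, with 12 to 13, 11 with only the arrays of the 2 groups and 7 of 8 genes. Macrophages against granulocytes gave 1, and 2 with only the arrays of the 2 groups, where Dnmt3a 1423066_PM_at was lost (adjusted p = 0.0718) and Tet2 1438781_PM_at (0.0141) and Ezh1 1449023_PM_a_at (0.0312) were new. It gave 3 with arrays centred on their median and 0 to 3 over fits leaving out 1 pool. With the pool number as a replicate block the counts were 0, 0, 8, 13 and 2, the last by Tet2 1438781_PM_at (adjusted p = 0.048). With repeated quantile normalization, Dnmt3a 1423064_PM_at and 1423065_PM_at were no longer called in granulocytes (adjusted p = 0.0518 and 0.0802) and 1423066_PM_at no longer between the mature cells (0.189). Dnmt3b 1449052_PM_a_at was newly called between the mature cells there (adjusted p = 0.0408), with median centring (0.0334) and with 1 probe set per gene (0.0447). With only the arrays of the 2 groups, the count over all probe sets went from 259 to 46 for the knockout label and from 1998 to 536 for VENUS, but from 8511 to 11216 in macrophages. The cause was not tested. With 1 probe set per gene, 17097 were tested and 155, 1003, 4038, 7720 and 5337 called, in the order used here. Centring moved no comparison by more than 0.08 in log2 units. The 2 dim Ezh1 probe sets read near the lower quartile of an array, and the MDP groups held 2 or 3 pools each. With only the arrays of the 2 groups, the SE of Uhrf1 1415810_PM_at was 0.12 for the knockout label and 0.16 for VENUS. Both were below its SE in the fit of all groups, which also holds the spread of the spleen pools. What limited the calls between MDP groups was not tested.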
